A study of Mus musculus with 6 samples.

Results

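The 50 genes described here encode proteins of mitosis and the spindle, from the cyclins and kinases that start division to the proteins that separate the daughter cells. They were set as a list of gene symbols, and the 50 symbols were all found among the 24822 gene rows of the count table. The samples were macrophages sorted by flow cytometry from injured sciatic nerve of C57BL/6 mice of the genotype Macblue x Cx3cr1egfp/+, 14 days after CCI, the nerve injury that all animals had received. Sorted cells carried CD64 and CD11b and lacked SiglecF and Ly6G. ECFP+ cells stood for recently recruited macrophages (3 libraries) and EGFP+ cells for resident macrophages (3 libraries). For each library 3 mice were pooled, and about 400 cells went in. As background, MacBlue mice express ECFP from a modified Csf1r promoter, and in Cx3cr1-EGFP heterozygotes EGFP replaces the coding sequence of 1 Cx3cr1 allele, so each group is defined by reporter colour within the gate. No group from uninjured nerve is described here.

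Dividing cells make mitotic transcripts in a wave that peaks in G2 and mitosis, and resting cells make little of them. Cyclin B with Cdk1 drives entry into mitosis, the kinetochores and motors attach and align chromosomes, the spindle checkpoint holds back the anaphase-promoting complex until every chromosome is attached, and the complex then marks cyclin B and securin for destruction so that sister chromatids part and the cell divides. Macrophages that live in a tissue can renew by local division, and monocytes arriving from blood are mostly non-dividing cells, which is general knowledge and not a result of these data. In bulk libraries such as these, fewer cycling cells and less transcript per cycling cell cannot be told apart.

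The libraries held 16668691 to 21289052 counts in the recruited group and 19916756 to 27510959 counts in the resident group, with 12282 to 13071 and 11436 to 12356 genes detected. Levels are given as CPM, counts relative to TMM-scaled library sizes, and levels of different genes are compared in the deposited FPKM, which is per transcript length. Resident replicates 2 and 3 stood somewhat apart from the other 4 libraries, with Spearman correlations of 0.921 to 0.943 over tested genes. Among the other 4 the correlations were 0.960 to 0.978. Resident replicate 1 was closer to the recruited libraries (0.960 to 0.965) than to resident replicates 2 and 3 (0.937 and 0.943). The resident group also varied more (biological coefficient of variation 0.286 in recruited and 0.606 in resident libraries). The macrophage gene Csf1r was read at 1441 ± 228 CPM in recruited and 1233 ± 243 CPM in resident libraries (SD, n = 3 each), and Cx3cr1 at 34.4 ± 24.4 and 59.0 ± 29.9 CPM. Log2 differences have recruited on top, which makes them negative for a gene lower in recruited macrophages.

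The summed level of the mitotic transcripts was lower in every recruited library than in any resident library. The 50 genes summed to 312, 412 and 310 CPM in recruited replicates 1 to 3, against 775, 1674 and 939 CPM in resident replicates 1 to 3. The recruited mean of 345 ± 58.3 CPM was 0.305 times the resident mean of 1129 ± 479 CPM (SD, n = 3 each). The number of genes at 10 CPM or more was 8, 14 and 9 in the recruited libraries and 31, 39 and 33 in the resident ones.

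Of the 50 genes 49 passed the filter on low counts, and 48 of these had a negative log2 difference, where 49.0% of all 11354 tested genes did. By edgeR's quasi-likelihood test Cdc20 and Nusap1 were past the adjusted p of 0.05, both lower in recruited macrophages, beside 0.255% of all tested genes called lower. None of the members was called higher in recruited macrophages, where 0.0617% of all genes were. The count of members on that side was also 0 at an unadjusted p under 0.05 (8.13% of all genes), in DESeq2 (2.44%) and in limma-voom (0.0705%). At an unadjusted p under 0.05, 36 of the 49 (73.5%) were lower in recruited macrophages, against 8.65% of all tested genes. Every recruited library lay below every resident library for 34 of the 49 (69.4%), against 12.6% of all tested genes, and 0 members lay the other way round, against 12.2%. A log2 difference of -1 or below was fitted for 41 of the 49 (83.7%), against 7.05% of all genes, and one of 1 or above for 0, against 5.52%. The median log2 difference of the tested members was -2.05, with quartiles of -2.74 and -1.42, and the median over all tested genes was 0.01, with quartiles of -0.36 and 0.36. The filter could be passed through either group, and 43 of the 49 reached its threshold of 0.484 CPM in all 3 recruited libraries.

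The number of single genes called depended on the tool and on single libraries, while the median difference of the set stayed negative in every alternative. DESeq2 called 30 of the 49 lower in recruited macrophages, against 3.21% of all genes, and limma-voom called 0, against 0.211%, with 32 lower at an unadjusted p under 0.05, against 7.42% of all genes. Without resident replicate 1 edgeR called 21 members, against 2.81% of all genes, and 0 on the other side, against 2.19%. Without any other single library, recruited replicate 1, 2 or 3 or resident replicate 2 or 3, it called 0 members. In those 5 fits, in the same order, 31, 37, 31, 34 and 34 members were lower at an unadjusted p under 0.05, against 5.93%, 5.64%, 5.42%, 6.87% and 6.38% of all genes tested there.

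**Figure D1:**
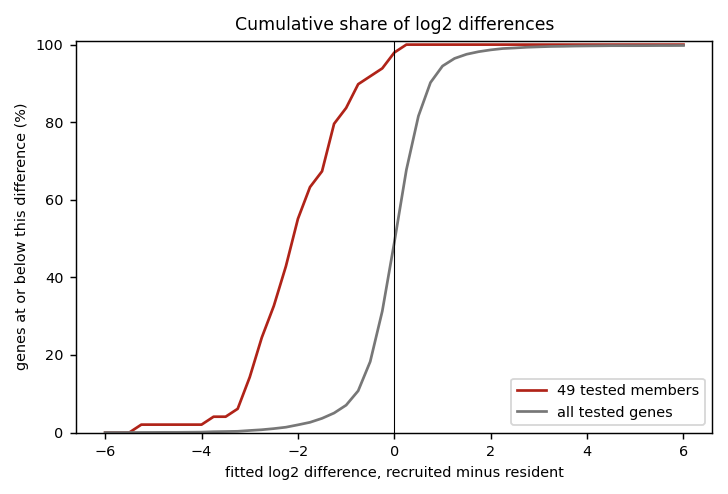
Cumulative share (%) of the fitted log2 difference, recruited minus resident, for the 49 tested mitosis and spindle genes (red) and for all tested genes (grey). The red curve lies to the left: its median is -2.05, against 0.01 for all genes.

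**Figure D2:**
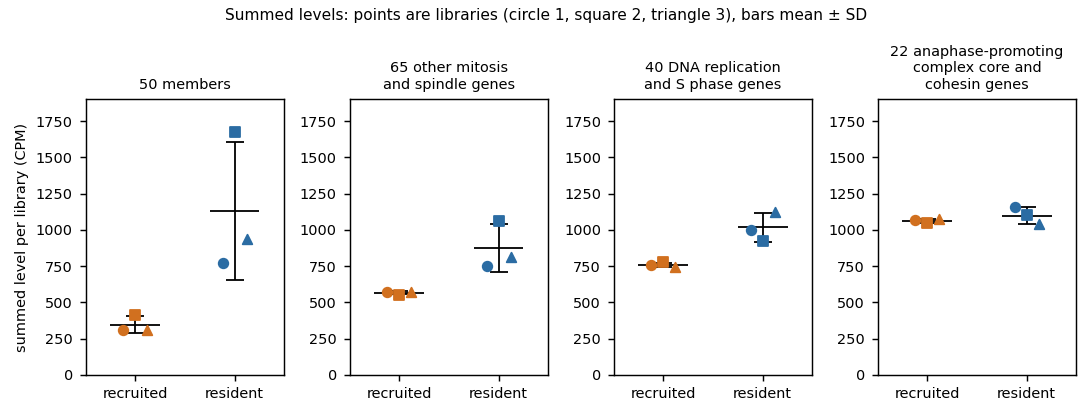
Summed CPM per library for 4 gene lists, recruited left of resident, with points for libraries and bars for the mean ± SD (n = 3). The 50 members sum to 312, 412 and 310 CPM in recruited and 775, 1674 and 939 CPM in resident libraries, and the anaphase-promoting complex core and cohesin list overlaps between the groups.

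Promoters are shown for 5 of the genes because many genes of mitosis are known to carry common promoter elements. In many G2 and mitosis genes a short element, the CHR, lies near the transcription start and is bound by the MuvB complex, which represses these genes in resting cells and helps to activate them in G2, and CCAAT boxes upstream of it are bound by NF-Y. RefSeq promoter windows (GRCm38.p6, the primary assembly of mm10), of 250 bases before to 50 after a start, were matched for 42 of the 50 genes. The CHR was searched as TTTGAA and, in its other spelling, as TTCGAA, on either strand. It was found in 33 of the 42 (78.6%), against 21.7% of all 27025 genes with such a window and 16.7% of the tested ones. A CCAAT box (CCAAT, either strand) was found in 32 of the 42 (76.2%), against 41.1% of all genes. Both elements together stood in 28 of the 42 (66.7%), against 9.65% of all genes. An E2F core, searched on either strand as TTCCCGC, in a further spelling TTGGCGC and in the last spelling TTCGCGC, was found in 9 of the 42 (21.4%), against 9.20% of all genes and 17.1% of the tested ones. The CHR began within 50 bases of the start in 30 of the 33 genes, a position that was not counted over all genes. With the search limited to the 250 bases before the start 18 of 42 genes (42.9%) held one, against 19.6% of all genes. These are matches of letters and not shown to be bound sites.

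The lines below give the 120 bases before the start, 5′ to 3′ on the gene's strand, with capitals for CHR and CCAAT matches, which did not overlap one another in these windows. Cdc20 and Nusap1 are the called genes, and Ube2c, Cdk1 and Cks1b had every recruited library below every resident library.
Cdc20: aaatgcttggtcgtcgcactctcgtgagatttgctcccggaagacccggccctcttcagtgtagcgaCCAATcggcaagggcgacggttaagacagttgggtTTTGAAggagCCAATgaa
Ube2c: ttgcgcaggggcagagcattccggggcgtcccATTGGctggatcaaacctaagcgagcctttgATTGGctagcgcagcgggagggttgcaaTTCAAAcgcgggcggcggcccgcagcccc
Cdk1: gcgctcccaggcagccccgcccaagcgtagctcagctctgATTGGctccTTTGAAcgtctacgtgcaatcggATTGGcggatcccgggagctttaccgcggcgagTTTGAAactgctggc
Cks1b: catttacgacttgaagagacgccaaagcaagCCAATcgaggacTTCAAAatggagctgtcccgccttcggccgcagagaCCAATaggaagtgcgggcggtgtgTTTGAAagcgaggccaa
Nusap1: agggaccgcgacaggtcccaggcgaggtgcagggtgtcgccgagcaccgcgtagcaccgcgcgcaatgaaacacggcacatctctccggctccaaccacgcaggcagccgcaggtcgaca
The windows lie at chr4:118437344-118437463 (minus strand) for Cdc20, chr2:164769809-164769928 (plus) for Ube2c, chr10:69352913-69353032 (minus) for Cdk1, chr3:89418292-89418411 (minus) for Cks1b and chr2:119618178-119618297 (plus) for Nusap1. Cdc20 and Ube2c each show a single CHR in these bases, and Cdk1 and Cks1b show a pair. Espl1, the tested member with a positive difference, holds both elements in its window, whose RefSeq start lies inside the annotated gene span. Nusap1, one of the called genes, holds neither in its window. Birc5, Mad2l1, Nuf2 and Pttg1 also had neither element.

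**Figure D3:**
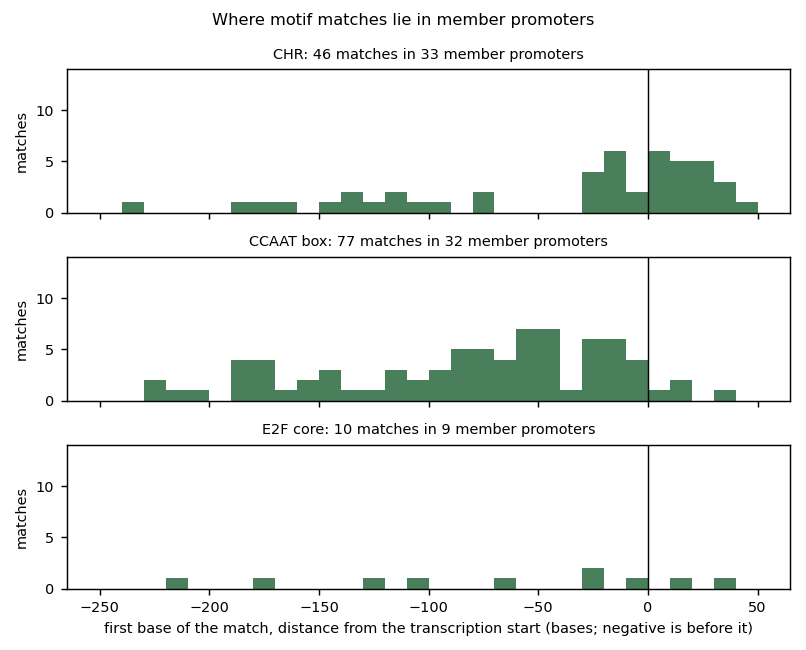
Number of motif matches by distance of the first base of the match from the transcription start (bases, negative before it), in bins of 10 bases, for the CHR, the CCAAT box and the E2F core in the promoters of 42 members (1 window a gene). CHR matches crowd around the start and CCAAT boxes lie mostly upstream of it.

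The 6 tested cyclins, Cdk1 and their partners had negative log2 differences (49.0% of all genes), from -3.48 for Ccnb1 to -0.84 for Cks2. None of the 6 passed. Cks1b, a small subunit that binds Cdk1 and its relatives, had 6.45, 12.7 and 8.99 CPM in recruited replicates 1 to 3, against 23.3, 61.1 and 48.0 CPM in resident replicates 1 to 3. The groups did not overlap, and the log2 difference of -2.23 ± 0.41 SE missed the threshold (adjusted p = 0.0858 in edgeR). Cks1b also had the highest FPKM of these 7 genes, averaging 16.6 FPKM in recruited and 75.8 FPKM in resident libraries. Its paralogue Cks2 stood at 14.4 and 25.1 FPKM, with overlapping libraries.

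The mitotic cyclins went the same way with more spread between resident libraries. Ccnb1, cyclin B1, had 3.34, 5.58 and 5.04 CPM in recruited replicates 1 to 3, against 13.5, 110.0 and 33.5 CPM in resident replicates 1 to 3 (log2 difference -3.48 ± 0.71 SE, adjusted p = 0.105). Ccnb2, cyclin B2, had 4.30, 12.8 and 4.35 CPM in recruited libraries, against 41.8, 99.4 and 29.1 CPM in resident ones (adjusted p = 0.105). Resident replicate 2 held the highest value of both cyclins. Cdk1, the kinase they activate, averaged 5.31 ± 3.59 CPM in recruited and 35.8 ± 24.9 CPM in resident libraries (SD, n = 3 each), again without overlap. Ccna2, cyclin A2, reached 15.8 CPM in recruited replicate 2, just under the 18.1 CPM of resident replicate 1. Cdc25c, the phosphatase that switches Cdk1 on, was hardly read. It had 22 counts over the 3 recruited libraries and 86 over the 3 resident ones, nearly all in replicate 2 of each group, and was not tested.

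The mitotic kinases other than Cdk1 had negative log2 differences in all 4 tested genes (49.0% of all genes), and none passed. Aurka, the Aurora A kinase of the centrosome and spindle poles, had 3.82, 5.78 and 3.70 CPM in recruited replicates 1 to 3, against 12.5, 48.0 and 14.2 CPM in resident replicates 1 to 3 (log2 difference -2.49 ± 0.56 SE, adjusted p = 0.110). Its annotated span overlaps Cstf1. Pbk, a kinase active in mitosis, had 2.45, 2.96 and 2.12 CPM in recruited libraries, against 10.1, 8.70 and 23.3 CPM in resident ones (log2 difference -2.48 ± 0.50 SE, adjusted p = 0.105). Neither gene overlapped between the groups, but which resident library was highest differed: replicate 2 for Aurka and replicate 3 for Pbk. Plk1, the polo-like kinase of mitotic entry and exit, and Nek2, which parts the centrosomes, overlapped, since resident replicate 1 had 1.89 CPM of Plk1 and resident replicate 3 had 0.0913 CPM of Nek2.

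The spindle checkpoint genes were uneven. Mad2l1, the checkpoint protein that blocks Cdc20, had 10.7, 13.0 and 11.3 CPM in recruited replicates 1 to 3, against 19.5, 53.7 and 23.5 CPM in resident replicates 1 to 3 (log2 difference -1.46 ± 0.40 SE, adjusted p = 0.144). Ttk, the Mps1 kinase at the head of the checkpoint, had 0, 0 and 0.247 CPM in recruited libraries, against 3.88, 5.81 and 2.42 CPM in resident ones, which is 5 counts over the recruited group and 277 over the resident group (adjusted p = 0.144). With no count in recruited replicates 1 and 2, where 3 counts would be 0.179 and 0.143 CPM, the fitted log2 difference of Ttk ran from -9.44 to -1.25 over the alternatives and no fold is given. Bub1b, the BubR1 inhibitor of the anaphase-promoting complex, did not share the gap, at 21.5 ± 5.21 CPM in recruited and 24.1 ± 7.35 CPM in resident libraries (SD, n = 3 each; log2 difference -0.17 ± 0.31 SE, adjusted p = 0.840). Bub1, a checkpoint kinase at kinetochores, had its lowest value in resident replicate 1, at 0.384 CPM, and its highest in resident replicate 2, at 18.9 CPM.

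Cdc20, the activator that brings substrates to the anaphase-promoting complex, was lower in recruited macrophages. It had 3.82, 3.68 and 2.47 CPM in recruited replicates 1 to 3, against 17.3, 45.8 and 22.3 CPM in resident replicates 1 to 3. The highest recruited library was far below the lowest resident one, and the log2 difference was -3.10 ± 0.44 SE (adjusted p = 0.0383). Over 17 alternatives it ran from -3.35 to -2.38 and the adjusted p from 1.55e-08 to 0.208, with 8 of them past the threshold. Without recruited replicate 1, 2 or 3, without resident replicate 2 or 3, and without both of these it did not pass, nor did it in limma-voom (adjusted p = 0.132), on unfiltered log2(FPKM + 1) (adjusted p = 0.105) or with the replicate number as a block (adjusted p = 0.0502). The gene lies at chr4:118432901-118437343 and overlaps Elovl1.

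The complex's partner enzyme and substrates varied in size. Ube2c, the ubiquitin-conjugating enzyme of the complex, averaged 5.86 FPKM in recruited and 50.2 FPKM in resident libraries, with 3.40, 6.73 and 2.91 CPM against 13.98, 74.6 and 25.8 CPM (log2 difference -3.13 ± 0.65 SE, adjusted p = 0.105). Pttg1, the separase inhibitor securin, had the highest FPKM of all 50 genes in both groups, at 68.4 FPKM in recruited and 105 FPKM in resident libraries, and one of the smaller gaps. Its libraries read 43.0, 35.9 and 41.4 CPM in the recruited and 71.5, 65.5 and 54.9 CPM in the resident group, without overlap (log2 difference -0.67 ± 0.18 SE, adjusted p = 0.138). Cdca3, which helps destroy the Cdk1 inhibitor Wee1, had recruited values of 3.11 to 7.88 CPM and resident values of 13.3 to 30.2 CPM. Espl1, separase itself, was the tested member with a positive log2 difference, at 24.3 ± 1.62 CPM in recruited and 20.7 ± 9.20 CPM in resident libraries (SD, n = 3 each; 0.23 ± 0.33 SE, adjusted p = 0.783). That sign turned without resident replicate 2.

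All 7 kinetochore and centromere genes had every recruited library below every resident library, against 12.6% of all tested genes. Cenpa, the histone H3 variant that marks centromeres, had 8.72, 20.2 and 11.7 CPM in recruited replicates 1 to 3, against 43.3, 107 and 53.6 CPM in resident replicates 1 to 3. Its log2 difference was -2.33 ± 0.43 SE (adjusted p = 0.0858), and its mean levels were 10.7 FPKM in recruited and 53.7 FPKM in resident libraries. Cenpf, a large protein of the outer kinetochore, had 0.418, 1.19 and 0.296 CPM in recruited libraries, against 6.67, 14.3 and 9.63 CPM in resident ones (38 counts against 679; log2 difference -3.98 ± 0.72 SE, adjusted p = 0.0854). In the main edgeR fit the Cenpf gap was the widest of the 7. It rests on few recruited counts, with recruited replicates 1 and 3 below the filter threshold of 0.484 CPM. Over the alternatives the Cenpf difference ran from -4.81 to -0.84, the last on log2(FPKM + 1), where Cenpa had -2.19. Among the 4 subunits of the Ndc80 complex, which grips microtubule ends, Spc24 averaged 2.18 ± 1.02 CPM in recruited and 15.2 ± 5.46 CPM in resident libraries and Spc25 5.97 ± 1.29 and 26.5 ± 16.8 CPM. Ndc80 averaged 3.58 and 13.9 CPM and Nuf2 3.16 and 13.1 CPM in the same order. Cenpe, a kinetochore motor, averaged 2.00 and 11.7 CPM.

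Among the 3 set members of the chromosomal passenger complex, which corrects faulty attachments, Birc5 (survivin) had the widest gap. It had 3.28, 10.17 and 4.64 CPM in recruited replicates 1 to 3, against 33.0, 89.7 and 41.0 CPM in resident replicates 1 to 3 (log2 difference -3.17 ± 0.53 SE, adjusted p = 0.0685). The groups did not overlap, and the mean levels of 7.66 and 64.1 FPKM made Birc5 the third highest member in resident libraries. The other subunits in the set had smaller gaps. Aurkb, the Aurora B kinase of the complex, averaged 10.4 ± 3.21 CPM in recruited and 21.6 ± 11.4 CPM in resident libraries and overlapped, and Cdca8 (borealin) averaged 13.5 ± 1.67 and 26.5 ± 3.70 CPM and did not (SD, n = 3 each; adjusted p 0.273 and 0.129).

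Nusap1, which bundles spindle microtubules near chromosomes, was lower in recruited macrophages and had the smallest adjusted p of the set. It had 1.43, 2.96 and 1.88 CPM in recruited replicates 1 to 3, against 14.1, 18.9 and 19.1 CPM in resident replicates 1 to 3. Its resident libraries lay closer together than those of Cdc20. The log2 difference was -3.05 ± 0.42 SE (adjusted p = 0.0356), and over 17 alternatives it ran from -3.38 to -2.05 with adjusted p of 1.18e-08 to 0.180, 8 of them past the threshold. It was lost in the same 9 alternatives as Cdc20, with an adjusted p of 0.0973 in limma-voom, 0.0595 on unfiltered log2(FPKM + 1) and 0.0502 with the block. Nusap1 lies at chr2:119618298-119650165 and overlaps Oip5, a centromere gene, from which its reads cannot be told apart where strand was not used.

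The other spindle genes averaged 0.486 to 7.29 CPM in recruited and 2.39 to 27.7 CPM in resident libraries. Tpx2, which builds microtubules around chromosomes and activates Aurka, had 6.92, 9.17 and 5.78 CPM in recruited replicates 1 to 3, against 17.1, 43.8 and 22.3 CPM in resident replicates 1 to 3 (log2 difference -1.93 ± 0.41 SE, adjusted p = 0.105). Kif2c, a kinesin that takes microtubules apart, averaged 2.89 and 14.9 CPM, Kif11, the motor that pushes spindle poles apart, 2.81 and 7.51 CPM, and Hmmr, a spindle pole protein, 2.13 and 8.71 CPM, in recruited and in resident libraries. In all 4 of these every recruited library was below every resident one, against 12.6% of all tested genes. Kif15, a second spindle motor, and Kif4, a chromosome-bound kinesin, overlapped. Kif4 had no count in recruited replicate 1 and none in resident replicate 1.

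Genes of the midzone and of cytokinesis had negative differences in all 6 members, against 49.0% of all tested genes. In 5 of them every recruited library was below every resident one, against 12.6% of all tested genes. Kif20a, a kinesin of the midzone, had 4.30, 3.91 and 3.26 CPM in recruited replicates 1 to 3, against 14.05, 41.8 and 11.5 CPM in resident replicates 1 to 3 (log2 difference -2.55 ± 0.53 SE, adjusted p = 0.105). Its span overlaps Brd8 and Cdc23. Racgap1, which with Kif23 forms centralspindlin, had 9.31, 11.9 and 12.5 CPM in recruited libraries, against 35.8, 42.3 and 14.8 CPM in resident ones (log2 difference -1.46 ± 0.39 SE, adjusted p = 0.143). Kif23 overlapped, because resident replicate 3 had 1.00 CPM of it, while the same library had 29.2 CPM of the microtubule bundler Prc1. Prc1 averaged 3.93 ± 3.28 CPM in recruited and 28.8 ± 19.7 CPM in resident libraries, Anln (anillin, of the contractile ring) 4.60 ± 1.32 and 22.4 ± 18.3 CPM, and Ect2, the exchange factor that switches on RhoA at the midzone, 1.84 ± 0.811 and 10.9 ± 4.44 CPM (SD, n = 3 each).

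Chromosome structure genes had the smallest median gap beside the passenger complex, at -1.18 over 7 genes. Of the 7, 2 did not overlap, both lower in recruited macrophages, against 12.6% of all tested genes. Mki67, which coats mitotic chromosomes and encodes the Ki-67 antigen, had 4.84, 6.30 and 6.07 CPM in recruited replicates 1 to 3, against 8.39, 44.5 and 15.4 CPM in resident replicates 1 to 3 (log2 difference -1.98 ± 0.58 SE, adjusted p = 0.163). Top2a, the topoisomerase that untangles sister chromatids, had its highest value in another resident library, at 18.2, 11.3 and 8.67 CPM in resident replicates 1 to 3, against 2.21, 9.64 and 4.94 CPM in recruited replicates 1 to 3 (adjusted p = 0.348). These common markers of division therefore ranked the resident libraries differently. Cdca5 (sororin), which protects cohesion between sisters, averaged 3.05 ± 1.62 CPM in recruited and 9.17 ± 0.368 CPM in resident libraries (SD, n = 3 each), without overlap.

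The 4 condensin genes of the set overlapped between the groups, and none passed. Smc4, a core subunit of condensin I and II, had 36.7, 30.3 and 30.5 CPM in recruited replicates 1 to 3, against 32.7, 59.9 and 39.4 CPM in resident replicates 1 to 3 (log2 difference -0.44 ± 0.26 SE, adjusted p = 0.439). Smc2, its partner, averaged 17.9 ± 3.53 CPM in recruited and 30.6 ± 16.8 CPM in resident libraries, and the condensin I subunits Ncapd2 and Ncapg averaged 4.31 and 4.80 CPM and 1.67 and 4.65 CPM in that order. The direction of Ncapd2 was not steady, with a log2 difference of -0.15 ± 0.68 SE that turned positive in 6 of the alternatives.

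**Figure D4:**
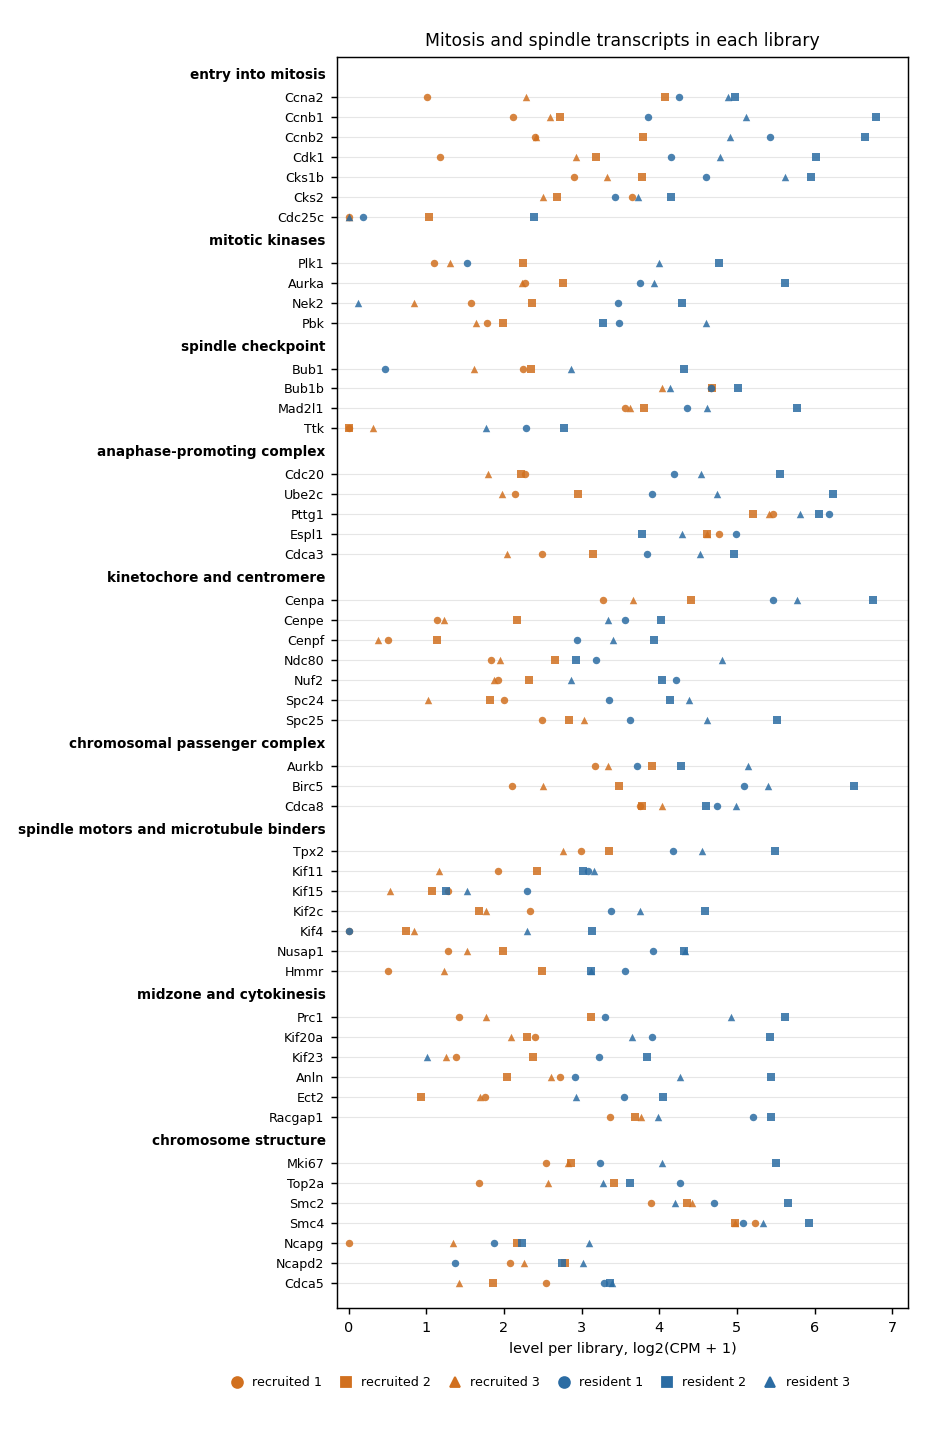
Level of each of the 50 genes in each library as log2(CPM + 1), grouped by role, with recruited libraries in orange and resident libraries in blue (circle, square and triangle for replicates 1, 2 and 3). Orange points lie left of blue ones in most rows. The groups overlap in 15 of the 49 tested genes, among them Bub1b, Espl1, Smc4 and Ncapd2.

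**Figure D5:**
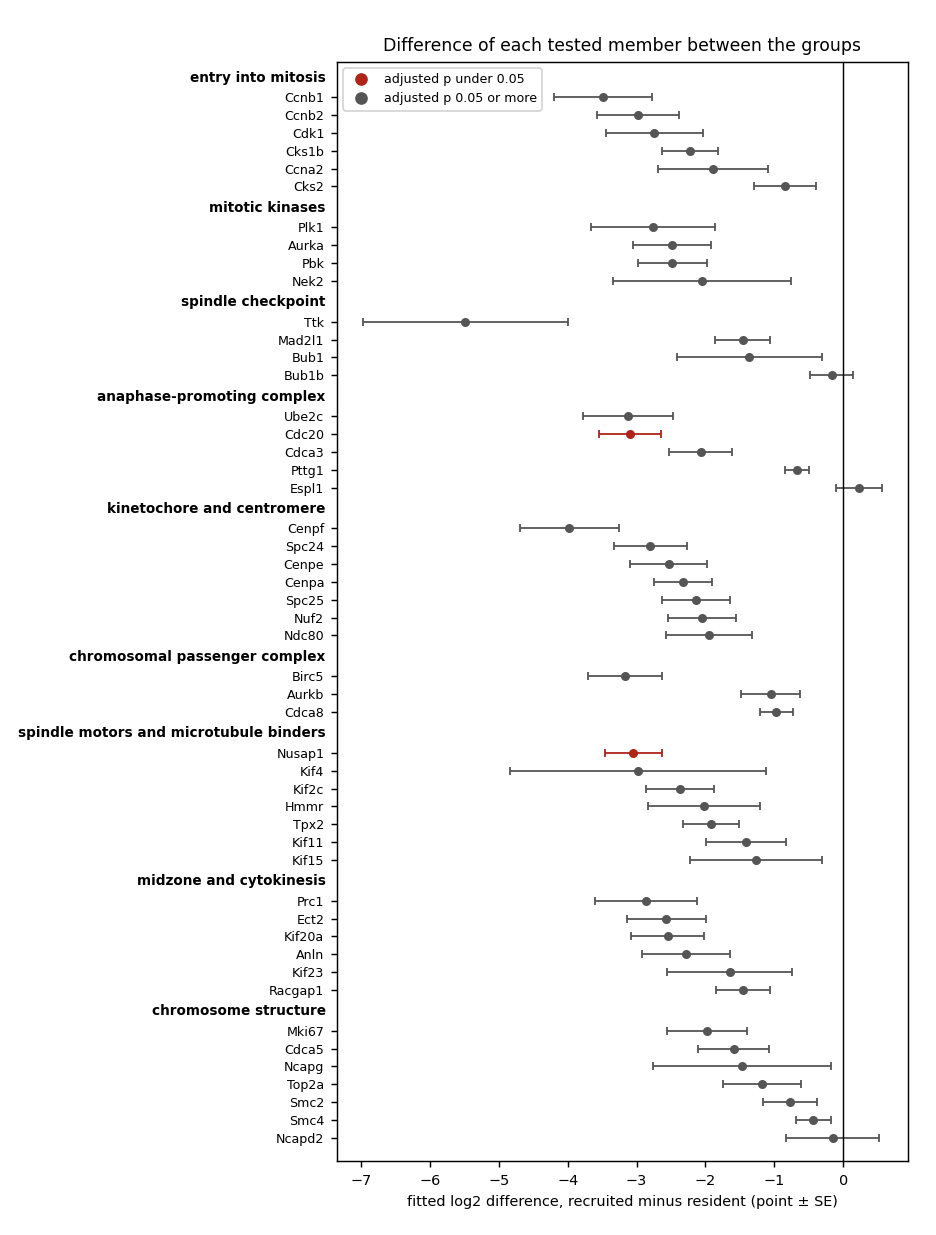
Fitted log2 difference, recruited minus resident (point ± SE), of the 49 tested genes by role. Cdc20 (-3.10) and Nusap1 (-3.05), in red, are the genes past an adjusted p of 0.05, and Espl1 (0.23) is the one above 0.

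Single libraries differed in which members they held. Resident replicate 2 had the highest value of its group for 34 of the 50 genes, replicate 3 for 10 and replicate 1 for 6, and resident replicate 1 had the lowest for 29. In the recruited group replicate 2 was highest for 32, replicate 1 for 12 and replicate 3 for 6. The order of the 50 genes by FPKM was similar in all libraries, with Spearman correlations of 0.838 to 0.927 within the recruited group, 0.845 to 0.868 within the resident group and 0.731 to 0.884 between the groups. These are correlations across genes, which are not independent. With resident replicate 1 as the single resident library, an alternative added after the data were seen in which that library is taken to have the spread of the recruited group, 45 of 50 log2 differences were negative with a median of -1.45. In that fit 0 members were called. At an unadjusted p under 0.05, 28 members had a negative difference, against 4.38% of all genes, and 1, Bub1, a positive one, against 7.41%.

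The rest of the mitotic programme was read from a list of 65 other mitosis and spindle genes. Of the 60 tested, 51 had a negative log2 difference (49.0% of all genes), the median was -1.51, and 28 did not overlap on the lower side (12.6% of all genes). None passed edgeR in either direction, and 27 were lower (8.65% of all genes) and 0 higher (8.13%) at an unadjusted p under 0.05. DESeq2 called 13 lower (3.21% of all genes) and limma-voom 0 (0.211%). Tacc3, which stabilises spindle microtubules, had the smallest p, at 15.3 ± 2.28 CPM in recruited and 51.6 ± 19.4 CPM in resident libraries (adjusted p = 0.0688). Pkmyt1, a kinase that restrains Cdk1, averaged 3.37 ± 1.57 and 17.2 ± 8.30 CPM (SD, n = 3 each; adjusted p = 0.108).

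DNA replication and S phase genes had a smaller median difference, -0.56 over 40 genes, with 35 negative (49.0% of all genes) and 15 without overlap on the lower side (12.6%). They summed to 757, 775 and 744 CPM in recruited replicates 1 to 3, against 1002, 925 and 1125 CPM in resident replicates 1 to 3. The sum of the mitotic genes was 0.412, 0.531 and 0.416 times that of the S phase genes in the recruited libraries and 0.773, 1.81 and 0.835 times in the resident ones. None of the 40 passed edgeR, and 10 were lower (8.65% of all genes) and 0 higher (8.13%) at an unadjusted p under 0.05. DESeq2 called 5 lower (3.21% of all genes) and limma-voom 0 (0.211%). Tk1, thymidine kinase, averaged 2.39 ± 1.50 CPM in recruited and 18.3 ± 4.49 CPM in resident libraries, and Tyms, thymidylate synthase, 5.59 ± 0.467 and 19.4 ± 5.55 CPM (SD, n = 3 each; adjusted p 0.0737 and 0.0858).

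Anaphase-promoting complex core and cohesin genes, transcription factors of the cycle and cell cycle inhibitors had medians close to that of all genes. The 22 core subunits of the anaphase-promoting complex and cohesin had a median of -0.00 and summed to 1047 to 1076 CPM in recruited and 1038 to 1157 CPM in resident libraries. Their smallest p values belonged to Anapc13 and Anapc11, small subunits of the complex, at 24.3 and 60.5 CPM in recruited and 44.8 and 88.9 CPM in resident libraries (adjusted p 0.138 and 0.217). The 24 tested transcription factors of the cycle had a median of -0.05, with E2f5 at 13.0 and 7.43 CPM and Rbl2, a pocket protein of the repressive complex, at 34.0 and 20.1 CPM (adjusted p 0.251 and 0.394). Cell cycle inhibitors had a median of -0.04 over 12 tested genes. Among them Cdkn2c, a Cdk4 and Cdk6 inhibitor, averaged 7.32 ± 0.904 CPM in recruited and 23.6 ± 9.07 CPM in resident libraries, and Btg1, an antiproliferative gene, 535 ± 45.6 and 396 ± 28.5 CPM (SD, n = 3 each; adjusted p 0.105 and 0.163).

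The 11 G1 cyclins and kinases had a median of -0.33. Ccnd1, cyclin D1, had 2.09, 1.48 and 0.691 CPM in recruited replicates 1 to 3, against 9.19, 11.2 and 9.90 CPM in resident replicates 1 to 3, without overlap (log2 difference -2.83 ± 0.56 SE, adjusted p = 0.105). Ccnd2 averaged 8.09 ± 3.99 and 20.0 ± 9.34 CPM (SD, n = 3 each; adjusted p = 0.242). In these 4 lists edgeR called 0 genes in either direction. At an unadjusted p under 0.05, 3 of 22 complex and cohesin genes were lower and 1 higher, and 0 and 1 of 24 transcription factors. Of 12 inhibitors 2 were lower and 1 higher, and of 11 G1 genes 2 and 0. The shares of all genes were 8.65% lower and 8.13% higher. In the same order DESeq2 called 1 and 0, 0 and 0, 1 and 1, and 1 and 0. It called 3.21% of all genes lower and 2.44% higher. In limma-voom 0 were called (0.211% and 0.0705% of all genes).

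Markers of other cell types were read in the same libraries, and their part in the mitotic difference was not tested. The 8 macrophage genes summed to 35894 to 46753 CPM in recruited and 37260 to 40163 CPM in resident libraries, most of it Lyz2 and then Cd68. Dendritic cell markers, led by Cd209a and Mgl2, moved with the resident group in part, with all 7 genes detected and sums of 100 to 241 CPM in recruited and 158 to 842 CPM in resident libraries. In resident replicates 1 to 3 these markers summed to 158, 485 and 842 CPM, and the 50 mitotic genes to 775, 1674 and 939 CPM. Among B cell markers Pax5 and Blk were at 0 in all 6 libraries, while the list summed to 4.94 to 7.64 CPM in recruited and 21.1 to 30.3 CPM in resident libraries. Nearly all of that was Cd79b, at 5.96 ± 1.52 against 25.1 ± 4.73 CPM (SD, n = 3 each; adjusted p = 0.0493), and Ms4a1 was at most 0.629 CPM.

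Fibroblast and perineurium markers were low, at 5.68 to 12.2 CPM in recruited and 22.4 to 55.2 CPM in resident libraries over 5 of 6 genes detected, led by Col3a1 and Dcn, with Pdgfra at 0 in all. Schwann cell markers summed to 384 to 637 CPM in recruited and 329 to 398 CPM in resident libraries, mostly Pmp22 and Egr2, with the lineage factor Sox10 at 0 in all. T and NK cell markers, with Lck and Cd3d the highest, summed to at most 0.938 CPM in recruited and 0.245 CPM in resident libraries, with Ncr1 and Nkg7 at 0. Neutrophil markers, led by Csf3r and S100a8, summed to 230 to 295 CPM in recruited and 107 to 136 CPM in resident libraries, with Ly6g at 0 in all. Monocyte markers, led by Fn1 and Ccr2, summed to 1865 to 2854 and 2110 to 2996 CPM, and endothelial and mural markers, led by Kdr and Pecam1, to 10.5 to 17.4 and 11.5 to 19.7 CPM, in recruited and in resident libraries. Mast cell markers, led by Kit and Mcpt4, reached 2.81 CPM in recruited and 5.38 CPM in resident libraries, with Cpa3, Cma1 and Fcer1a at 0. Red cell precursor genes, led by Hbb-bs and Hba-a1, ran from 0 to 22.5 CPM in recruited and from 1.75 to 325 CPM in resident libraries, the highest in resident replicate 3.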

How the data were processed

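RNA of 3 recruited (ECFP+) and 3 resident (EGFP+) macrophage pools was amplified over 18 cycles and sequenced in 2 runs, per the labels' protocols. Which run held which library is not given here, and the part of the run was not tested. Expected counts per gene were deposited by the authors without normalization, and a second deposited table holds FPKM, scaled to depth and transcript length. STAR 2.5.3a and RSEM 1.2.28 are among the tools that the submitters' processing notes name, beside FastQC, Trimmomatic, edgeR and DESeq2, and mm10 is the build. The annotation, and whether strand was used, is not stated. Of 24848 rows 26 had a date in place of a symbol (0.121 to 0.138% of each library) and were left out. The counts carry no molecular identifiers, and floors cover counting error only. The SE and SD also hold the spread between libraries.

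Counts were rounded and tested with edgeR 4.0.16 (R 4.3.3; quasi-likelihood, TMM, filterByExpr, robust, no term but group). The 11354 tested genes were adjusted together by Benjamini-Hochberg, and 0.05 was the threshold. SE is the absolute log2 difference divided by the square root of F. Alternatives used DESeq2 1.42.0, limma 3.58.1 (voom, and log2(FPKM + 1) or + 0.1), other scalings and filters, each library left out and a replicate block. With 3 libraries against 3 an exact permutation test cannot go below p = 0.1, so none was used. Replicates are separate pools, per the design text. The edgeR fit was also run on simulated data. For each gene these had the same dispersion in both groups, so the unequal spread of the groups was not covered. The members and the gene lists (roles, pathway and cell type lists) were chosen with earlier results of these data known. Full values are given for the members past the threshold and, in each role, for those with the highest FPKM and the smallest p. From each pathway list up to 4 genes past the threshold were named, or else the pair with the smallest p, and from each cell type list the pair with the highest CPM. Other members named beside them were picked with their values seen. One gene of the cell type lists is not reported here.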

Additional observations from a re-analysis of the deposited data

How the results depend on the processing

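The median log2 difference of the members stayed negative in every alternative. It moved by more than the spread between resident libraries on log2(FPKM + 1), at -1.25 with the filter and -1.24 without it, and without resident replicates 2 and 3, at -1.45. With no filter on low counts 4 of 50 members were called lower in recruited macrophages, against 0.278% of all genes. The number was 5 of 25 at 10 CPM in 3 libraries (0.681%), 30 of 49 in DESeq2 (3.21%) and 0 in limma-voom (0.211%). On log2(FPKM + 1) it was 7 of 49 (0.476%) with the filter and 0 (0.0487%) without it. On log2(FPKM + 0.1) it was 6 of 49 (0.379%). With 1 library left out it was 0 to 21 (0 to 2.81% of all genes). None was called higher in any of these. The number of genes called over the whole table was 58, 75, 642, 72, 56, 8 and 11 with no filter, at 10 CPM, in DESeq2, on log2(FPKM + 1), on log2(FPKM + 0.1), on unfiltered log2(FPKM + 1) and without resident replicates 2 and 3, and 0 to 580 with 1 library left out. The 34 members without overlap were 34 to 41 over the alternatives, and the share of all genes without overlap on that side grew too, to 15.7 to 21.9% with 1 library left out and 30.1% without resident replicates 2 and 3. Within the 250 bases before the start 18 of 42 members held a CHR.

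Deviations from the group mean correlated at 0.00245, 0.0687 and 0.0350 between same-numbered libraries, and at -0.086 to 0.0631 between the others. These values cannot show whether same-numbered pools came from the same mice, which the labels do not make clear. With the replicate block 28 genes were called over the whole table, 22 of them lower in recruited macrophages (0.194%), among them 6 members, Ccnb2, Cks1b, Ube2c, Cenpa, Birc5 and Prc1.

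Directions turned for 6 members, none of them past the threshold. With 1 library left out Ncapd2 ran from -0.57 to 0.26, Bub1b from -0.37 to 0.062 and Espl1 from -0.022 to 0.64. Ncapd2 was also 0.25 in limma-voom, 0.032 on log2(FPKM + 0.1), 0.054 with the replicate block and 1.46 without resident replicates 2 and 3. In that last fit Bub1 was 3.09, Plk1 0.17, Kif4 6.42 and Espl1 -0.33, the Kif4 value resting on a resident library with no count. Bub1 was 0.25 in limma-voom. The cause of these changes was not tested. At about 400 cells a library, genes near 3 counts (0.105 to 0.179 CPM) cannot be ranked.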

Other observations

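Over all tested genes the log2 difference rose with the transcript length implied by counts and FPKM (Spearman rho 0.375 over 10633 genes), and over 48 members rho was 0.212. Among genes longer than the median of 2474 bases the median log2 difference was -1.98 for 27 members and 0.20 for all genes. Among shorter genes it was -2.23 for 21 members and -0.17 for all genes. These are correlations across genes of the same libraries, and genes are not independent.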
